A study of Rattus norvegicus with 12 samples.

Results

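The genes described here are known markers of the excitatory neurons of the cerebral cortex and of the layers in which these neurons lie. The list held 34 symbols of 33 genes (Ctgf is the older name of Ccn2), of which 29 had a probe set annotated with that symbol alone and a mean log2 value above 4 over the arrays. These 29 belong to 14847 genes measured in the same way. The members fell into 12 of 13 upper-layer genes, 11 of 14 deep-layer genes and all 6 genes that mark excitatory neurons more broadly or that are graded across the cortex. Unc5d, Crym, Tshz2 and Hs3st4 were annotated with no probe set of their own symbol alone and were not analysed here. Each of the 29 was read from 1 probe set, so all values of a gene come from the same probes.

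Expression was measured in the prefrontal cortex (PFC) of adult male Sprague-Dawley rats. The Stress group (n = 6) went through a 40 min inescapable footshock (FS) session at 0.8 mA, with 20 min of actual shock and random intervals of 2 to 8 s. The Control group (n = 6) stayed undisturbed in the home cage, and rats of either group were killed 2 h from the start of the session. Each array was taken as 1 rat, and values are log2 RMA values, so a difference of 1 is a doubling. RNA came from PFC tissue with no separation of layers stated, and other time points were not analysed here.

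Cortical excitatory neurons are glutamatergic cells that are born from the progenitors of the dorsal forebrain and settle in layers. Upper-layer neurons mostly send axons to other cortical areas, while deep-layer neurons project to the thalamus, brainstem, spinal cord and striatum. Transcription factors such as Fezf2, Tbr1 and Sox5 set the deep-layer identities during development in mice, and Cux1 and Cux2 mark the upper layers. In bulk tissue a marker level follows both the number of cells that make it and the RNA each cell holds, and fewer cells of a type cannot be told apart from less RNA per cell.

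Array medians lay between 5.49 and 5.54 and correlations between arrays between 0.994 and 0.998. By their dimmest probe sets the arrays fell into array set 1, with Control 1 to 4, and array set 2, with Control 5, Control 6 and all 6 Stress arrays. The labelled tissue was checked with Slc17a7, the vesicular glutamate transporter of cortical neurons, which lay at 10.79 to 11.11, with Tbr1 at 9.57 to 10.05 and with Emx1, a dorsal forebrain transcription factor, at 5.68 to 6.31. Markers of the neighbouring striatum were also present. Of 26 listed striatal projection neuron genes 23 were measured, all 23 with a lower mean in Stress and 0 past the threshold, and their mean log2 level ran from 6.69 to 7.82 in Control and from 6.65 to 7.57 in Stress arrays. Relative to the mean of all arrays it was highest in Control 5 (0.75), Control 4 (0.60) and Stress 4 (0.50). The mean of 10 of 11 choroid plexus markers, centred in the same way, was 2.91 in Control 5 and no more than −0.082 on the other arrays.

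**Figure D1:**
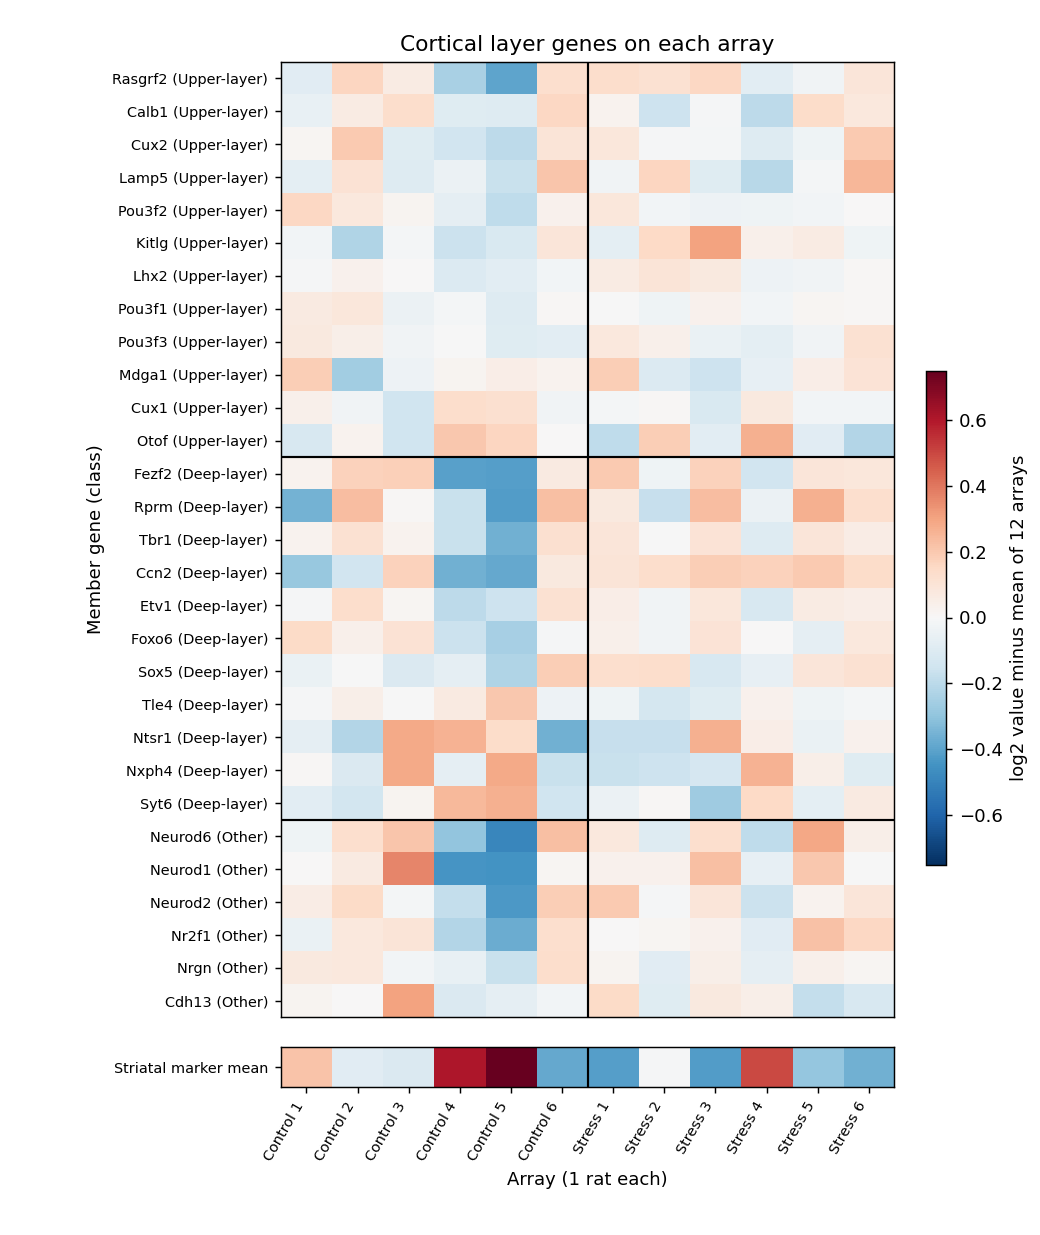
Log2 value of each of the 29 members minus its mean over the 12 arrays (color), with members in rows by class and arrays in columns, Control on the left and Stress on the right of the vertical line. The row at the foot is the mean of the striatal markers, which is highest in Control 5 (0.75), Control 4 (0.60) and Stress 4 (0.50), and 16 of 29 members have their lowest value in Control 5.

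The first comparison asked whether genes of any cortical layer differed between stressed and control rats. None of the 29 members passed the threshold (limma, adjusted p at most 0.05), and 7 of all 16085 probe sets tested did (0.0435%), 0.0373% higher and 0.00622% lower in Stress. At an unadjusted p under 0.05, 2 members were past it, both higher in Stress, against 6.35% of all probe sets, or 3.43% in the higher direction. In 0 of 29 members did the groups separate completely, against 0.441% of all probe sets. Of the 29 members 18 had a higher mean in Stress, as 53% of all probe sets did, and the median log2 difference was 0.034, where the median over all probe sets was 0.0039. The differences ran from −0.090 for Tle4 to 0.31 for Ccn2, with adjusted p-values from 0.397 to 0.998.

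**Figure D2:**
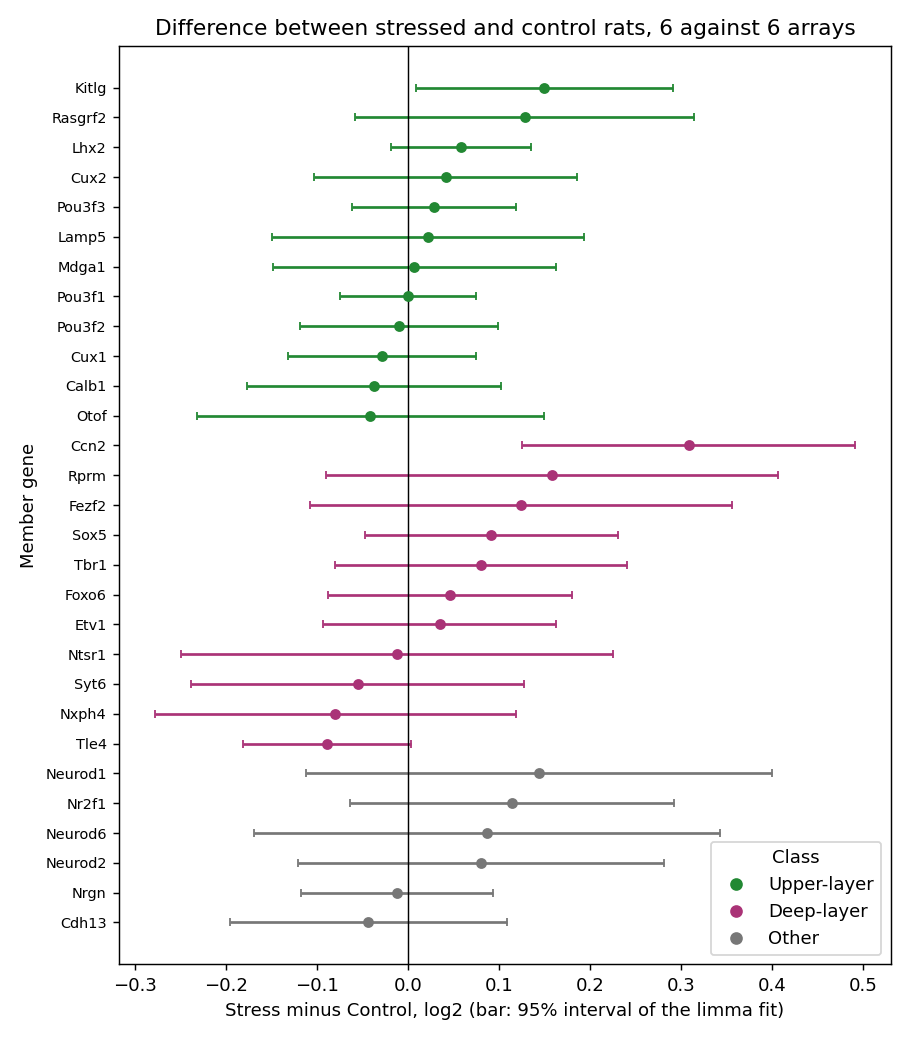
Log2 difference of each member, Stress minus Control (x axis, points), with the 95% interval of the limma fit (bars), n = 6 arrays per group and colors for the 3 classes. Of the 29 intervals only those of Ccn2 (0.12 to 0.49) and Kitlg (0.0082 to 0.29) lie wholly above 0, and neither gene passes after adjustment over 16085 probe sets.

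Ccn2 encodes a secreted matrix protein, also called connective tissue growth factor, that marks the neurons of the deepest cortical layer in rodents and is made by vascular and meningeal cells as well. It had the smallest p of all members. In Control arrays its values were 6.18, 6.32, 6.63, 6.10, 6.08 and 6.54 in Control 1 to Control 6. In Stress arrays they were 6.56, 6.60, 6.65, 6.63, 6.66 and 6.60 in Stress 1 to Stress 6. Every Stress array lay above 5 of the 6 controls, and Control 3 lay among the Stress arrays, 2 of which were above it. The means were 6.31 ± 0.23 in Control and 6.62 ± 0.038 in Stress (SD, n = 6 each), a 1.24-fold difference with a 95% interval of 1.09 to 1.41. The log2 difference was 0.31 (SE 0.0854, limma adjusted p = 0.397). Within array set 2 it was 0.31, against 2 controls that lay apart, Control 5 at 6.08 and Control 6 at 6.54. Every other value given within array set 2 rests on the same 2 controls. The Ccn2 difference was 0.22 with the striatal mean added to the fit (SE 0.0748, limma adjusted p = 0.623) and 0.26 without Control 5 (adjusted p = 0.634). Endothelial markers, 8 of 10 measured (all but Pecam1 and Kdr), had a mean of −0.038 to 0.15 in Control and −0.15 to −0.0091 in Stress arrays. Their part in the Ccn2 values was not tested.

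The 250 bases that precede the start of Ccn2 are shown because this member had the largest difference between the groups. They are RefSeq sequence of the GRCr8 assembly, chr1:22624615-22624864, minus strand, written 5′ to 3′. Capitals mark the TEAD site GGAATG, which is bound by the TEAD partners of the YAP coactivator, and the TATA box TATAAA. Each was searched on both strands.
Ccn2: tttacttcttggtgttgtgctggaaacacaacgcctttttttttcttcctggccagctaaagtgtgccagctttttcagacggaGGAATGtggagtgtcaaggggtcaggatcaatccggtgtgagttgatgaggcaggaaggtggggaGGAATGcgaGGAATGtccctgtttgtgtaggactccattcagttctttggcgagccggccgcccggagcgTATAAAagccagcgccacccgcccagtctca
The TEAD letters occur 3 times, the farthest 166 and the nearest 92 bases before the gene start, and the TATA letters once, 31 bases before it. GGAATG was found in 12.1% of 33469 promoter windows of 250 bases and TATAAA in 12.9%, each counted on either strand. Promoters were given for 22 members, of which 3 held GGAATG (Rasgrf2, Ccn2 and Nrgn) and 2 held TATAAA (Kitlg and Ccn2). Letter matches describe the window and not binding.

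Among the upper-layer genes 7 of 12 had a higher mean in Stress, 0 passed the threshold and the median difference was 0.014. Kitlg encodes the ligand of the KIT receptor. It ran from 6.15 through a median of 6.30 to 6.46 in Control and from 6.30 through 6.42 to 6.67 in Stress. Its groups overlapped, with 2 Stress arrays above every control, and the log2 difference was 0.15 (SE 0.0659, adjusted p = 0.760 by limma; 0.087 within array set 2). Lhx2, a LIM homeodomain factor of the developing cortex, ran from 8.37 through 8.46 to 8.51 in Control and from 8.44 through 8.51 to 8.57 in Stress. Its difference was 0.058 (SE 0.0357, adjusted p = 0.840), with 3 Stress arrays above every control.

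Rasgrf2, a calcium-responsive exchange factor for RAS proteins, was the upper-layer member with the largest SD over arrays. Its values were 8.38, 8.63, 8.53, 8.22, 8.07 and 8.59 in Control 1 to Control 6 and 8.60, 8.58, 8.62, 8.39, 8.44 and 8.56 in Stress 1 to Stress 6. Control 5 and Control 4 were the lowest arrays, and 0 Stress arrays lay above the highest control. The difference was 0.13 (SE 0.0868, limma adjusted p = 0.867; 0.20 within array set 2). Otof, the calcium sensor otoferlin, a marker of superficial neurons in mice, ran the other way. It was highest in Stress 4 (6.84), Control 4 (6.78) and Stress 2 (6.77) and lowest in Stress 6 (6.36), and its group difference was −0.042 (SE 0.0887, adjusted p = 0.969). Lamp5, a membrane protein of superficial neurons and of one interneuron class, ran from 10.18 through 10.29 to 10.56 in Control and from 10.14 through 10.32 to 10.59 in Stress, ranges that nearly coincide.

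The POU-homeodomain factors Pou3f1, Pou3f2 and Pou3f3, which act in upper-layer neuron production in mice, had group differences of −0.00060, −0.0098 and 0.028. Pou3f3 ran from 7.78 through 7.86 to 7.95 in Control and from 7.80 through 7.88 to 7.99 in Stress. The 95% intervals of the differences were −0.075 to 0.074 for Pou3f1, −0.12 to 0.099 for Pou3f2 and −0.062 to 0.12 for Pou3f3. Cux1 and Cux2, the paired cut-like homeodomain factors, differed by −0.029 (SE 0.0482) and 0.041 (SE 0.0675), with adjusted p-values of 0.956 for both. Calb1, the calcium buffer calbindin, which interneurons also make, was at −0.038 and Mdga1, a cell-surface protein of migrating upper-layer neurons, at 0.0064.

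Among the deep-layer genes 7 of 11 had a higher mean in Stress, 0 passed the threshold and the median difference was 0.046. Fezf2, the zinc finger factor of corticospinal neurons, had values of 8.78, 8.93, 8.93, 8.35, 8.34 and 8.82 in Control 1 to Control 6 and of 8.95, 8.72, 8.93, 8.61, 8.85 and 8.84 in Stress 1 to Stress 6. Control 4 and Control 5 were the lowest of the 12 arrays, and the other controls lay among the Stress arrays. The group means were 8.69 ± 0.28 and 8.82 ± 0.13 (SD, n = 6 each), with a difference of 0.12 (SE 0.108, limma adjusted p = 0.897). Rprm, a cell cycle regulator that marks neurons of the deep layers, ran from 7.11 through 7.45 to 7.76 in Control and from 7.35 through 7.63 to 7.79 in Stress. Its difference was 0.16 (SE 0.116, adjusted p = 0.879 by limma), and Control 5 and Control 1 were its lowest arrays.

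Tle4, a Groucho corepressor of corticothalamic neurons, was the deep-layer gene with the largest difference downward. It ran from 8.99 through 9.05 to 9.23 in Control and from 8.90 through 8.997 to 9.06 in Stress. The groups overlapped, 2 Stress arrays lay below every control, and the difference was −0.090 (SE 0.0430, adjusted p = 0.797; −0.13 within array set 2). Sox5, an SRY-related factor that acts in the timing of deep-layer production in mice, ran from 6.91 through 7.08 to 7.32 in Control and from 7.02 through 7.24 to 7.27 in Stress, a difference of 0.091 (SE 0.0647, adjusted p = 0.871). Tbr1, the T-box factor of corticothalamic neurons, differed by 0.080 (SE 0.0749), Etv1, an ETS factor of the output layer, by 0.034 and Foxo6, a forkhead factor, by 0.046. The remaining deep-layer genes had lower means in Stress. They were the neurexin ligand Nxph4 (−0.080), the synaptotagmin Syt6 (−0.056) and the neurotensin receptor Ntsr1 (−0.012).

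The broader excitatory genes had 4 of 6 means higher in Stress and 0 past the threshold. Neurod1, a basic helix-loop-helix factor that drives neuronal differentiation, ran from 6.77 through 7.22 to 7.58 in Control and from 7.15 through 7.25 to 7.44 in Stress. The Stress arrays lay inside the Control range, and the difference was 0.14 (SE 0.119, adjusted p = 0.894). Nr2f1, the nuclear receptor COUP-TFI that is graded across cortical areas, ran from 6.89 through 7.28 to 7.39 in Control and from 7.18 through 7.29 to 7.48 in Stress, with 2 Stress arrays above every control and a difference of 0.11 (SE 0.0829, adjusted p = 0.879). Neurod2 and Neurod6, relatives of Neurod1 that stay on in mature excitatory neurons, differed by 0.080 and 0.087. Nrgn, neurogranin, which binds calmodulin at synapses, differed by −0.012 and Cdh13, a cadherin, by −0.044. Control 5 alone moved several of these differences: without it they were 0.016 for Tbr1, 0.0014 for Neurod2, −0.0019 for Neurod6, 0.054 for Fezf2, 0.062 for Rasgrf2, 0.069 for Neurod1, 0.050 for Nr2f1 and 0.090 for Rprm.

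**Figure D3:**
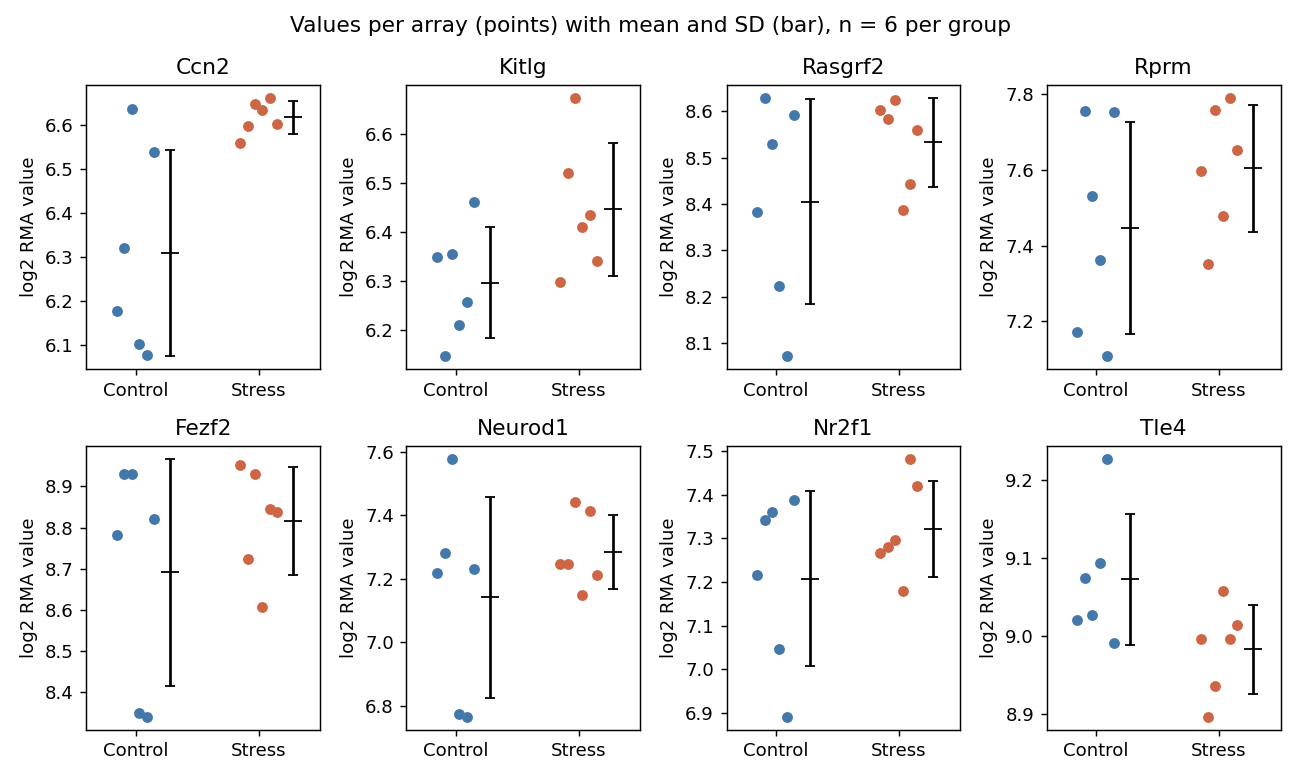
Log2 RMA values of 8 members on each array (points) with group mean and SD (bars), Control (blue) and Stress (orange), n = 6 per group and a separate y axis for each gene. Stress arrays of Ccn2 lie between 6.56 and 6.66, above 5 of the 6 controls, which run from 6.08 to 6.63, and groups overlap for all 8 genes.

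Upper-layer and deep-layer members were then set against each other on each array. For every array the centred log2 values of a class were averaged. The upper-layer mean ran from −0.091 in Control 5 to 0.051 in Control 6 and from −0.036 to 0.048 in Stress arrays. The deep-layer mean ran from −0.12 in Control 5 to 0.090 in Control 3 and from −0.041 to 0.058 in Stress arrays. The mean of the other 6 members had the widest range, from −0.33 in Control 5 and −0.22 in Control 4 to 0.16 in Control 3, and from −0.087 in Stress 4 to 0.099 in Stress 5.

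The Stress minus Control shift was 0.026 for the upper-layer class, 0.055 for the deep-layer class and 0.061 for the other members, and the SD between arrays of a group was 0.043, 0.061 and 0.15. The upper minus deep value lay between 0.012 and 0.072 in 5 controls and at −0.12 in Control 3. In Stress arrays it was 0.0057, 0.076, −0.049, −0.054, −0.0555 and −0.0099 in Stress 1 to Stress 6. Its shift was −0.029 with an SD of 0.061. The shift was −0.056 without Control 3 and −0.051 within array set 2. The SD of 0.061 includes Control 3, which both of these shifts leave out, and was not computed again for them. Without Control 5 the shifts were 0.011 for the upper-layer class, 0.036 for the deep-layer class and 0.0017 for the other members. No p is given for these means, since the members were chosen with earlier results known.

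**Figure D4:**
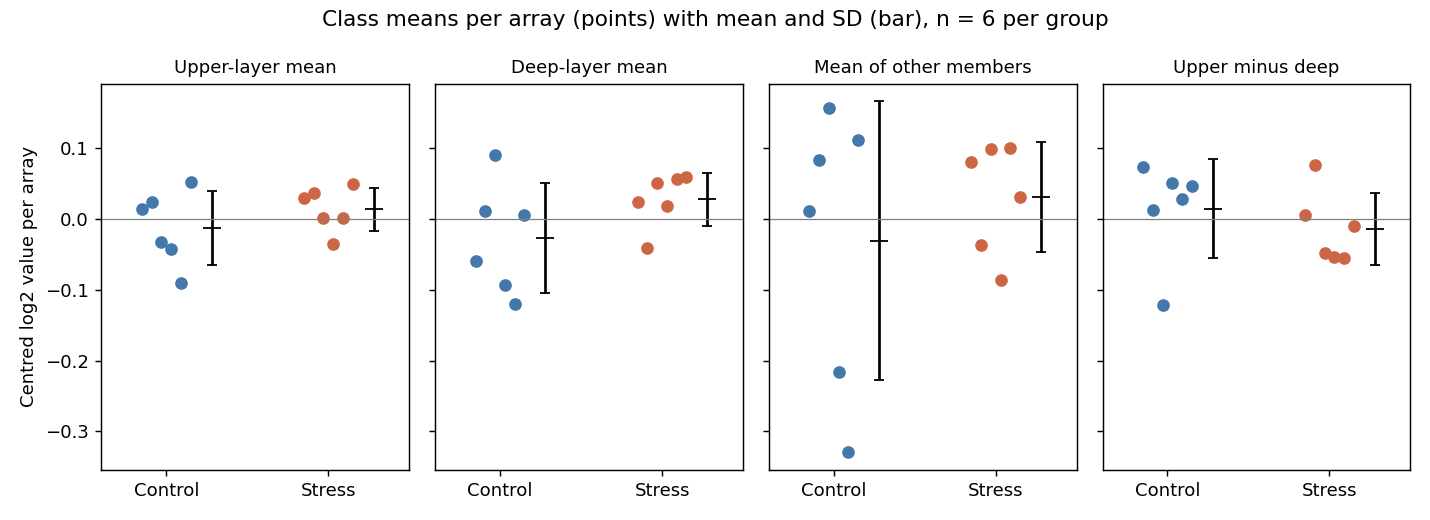
Mean of the centred log2 values of the 12 upper-layer, 11 deep-layer and 6 other members on each array, and the upper-layer minus the deep-layer mean (y axis, points), with group mean and SD (bars), n = 6 per group. The groups overlap in every panel, and the other members reach −0.33 and −0.22 in Control 5 and Control 4.

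The spread of the members over all arrays was compared next. The SD over 12 arrays ran from 0.048 for Pou3f1 to 0.24 for Neurod1, with a median of 0.14, where the median over all probe sets was 0.085. In 23 of 29 members the SD was smaller in Stress than in Control (79.3%), as it was for 69.4% of all probe sets. Pairs of the 6 other members had a median Pearson correlation of 0.716 over the 12 arrays, and all 15 pairs were above 0. With the 2 arrays farthest from the median of one gene of each pair left out, the median was 0.356, and 4 of the 15 pairs were below 0. Pairs within the upper-layer class had a median of 0.0892 (66 pairs), pairs within the deep-layer class −0.104 (55 pairs) and pairs across the 2 classes 0.167 (132 pairs). These correlations are descriptions over arrays that differ in their tissue markers, and no test was made of them.

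Control 5 held the lowest value of 16 members (55.2%) and of 10.2% of all probe sets. Fezf2 and Tbr1 of the deep layers, Rasgrf2 of the upper layers and Neurod1, Neurod2, Neurod6 and Nr2f1 were all low in Control 5 and Control 4. The values of Neurod6 were 9.25, 9.41, 9.49, 8.99, 8.80 and 9.51 in Control 1 to Control 6 and 9.37, 9.19, 9.41, 9.10, 9.58 and 9.33 in Stress 1 to Stress 6. The lowest arrays were Control 5, Control 4 and Stress 4, which are the 3 arrays with the highest striatal marker mean. Syt6 ran the opposite way, at 7.07 in Control 5, 7.05 in Control 4 and 6.96 in Stress 4 against 6.54 to 6.87 in the other arrays. Control 5 was also the highest array for choroid plexus (2.91), inhibitory interneuron (0.22), hippocampal neuron (0.13) and astrocyte (0.089) markers. The part of these cell types in the member values was not tested.

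To measure this, each probe set was fitted with group and the striatal marker mean as terms, and the slope is the log2 change of a gene for each log2 unit of the striatal mean. This fit was chosen after the values had been seen. Slopes of 12 of 29 members passed the threshold (limma, adjusted over 16085 probe sets), 10 of them below 0 and 2 above, and of all probe sets 4.09% passed, 1.87% below 0 and 2.22% above. The slope was −0.54 for Neurod6 (SE 0.0783, adjusted p = 0.00163), −0.48 for Fezf2 (SE 0.0755, adjusted p = 0.00277), −0.41 for Neurod2 (adjusted p = 0.00311), −0.32 for Tbr1 (adjusted p = 0.00456) and −0.26 for Etv1 (adjusted p = 0.00492). Rasgrf2 (−0.36), Nr2f1 (−0.34), Calb1 (−0.27), Rprm (−0.44) and Neurod1 (−0.44) were past it as well, with limma adjusted p-values from 0.00813 to 0.0489. These 10 genes belong to all 3 classes, 2 of them upper-layer, 4 deep-layer and 4 of the other members.

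The members with a slope above 0 were Syt6 at 0.34 (SE 0.0739, adjusted p = 0.0207) and Otof at 0.33 (SE 0.0835, adjusted p = 0.0414). The slopes of Cux1 and Cux2 had opposite signs, 0.17 (SE 0.0482) and −0.23 (SE 0.0702), and did not pass (adjusted p of 0.0657 and 0.0935). Kitlg (−0.086), Lhx2 (−0.081), Pou3f1 (−0.062), Pou3f3 (−0.047) and Mdga1 (0.012) had small slopes with intervals that include 0.

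The count of members past the threshold below 0 was 6 without Control 5 and 0 with the oligodendrocyte marker mean as a further term. The 2 above 0 were lost in that fit and without Control 4, Control 5 or Stress 4. With the replicate number of each array as a block, most calls below 0 and all above 0 were lost as well. All 12 slopes kept their sign in every fit run. Oligodendrocyte markers, 14 of 15 measured, ran from −0.28 to 0.22 in Control and from −0.070 to 0.16 in Stress arrays, and were highest in Control 4 (0.22) and Control 5 (0.18). Their part in the slopes was not tested beyond the fit with their mean as a term.

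**Figure D5:**
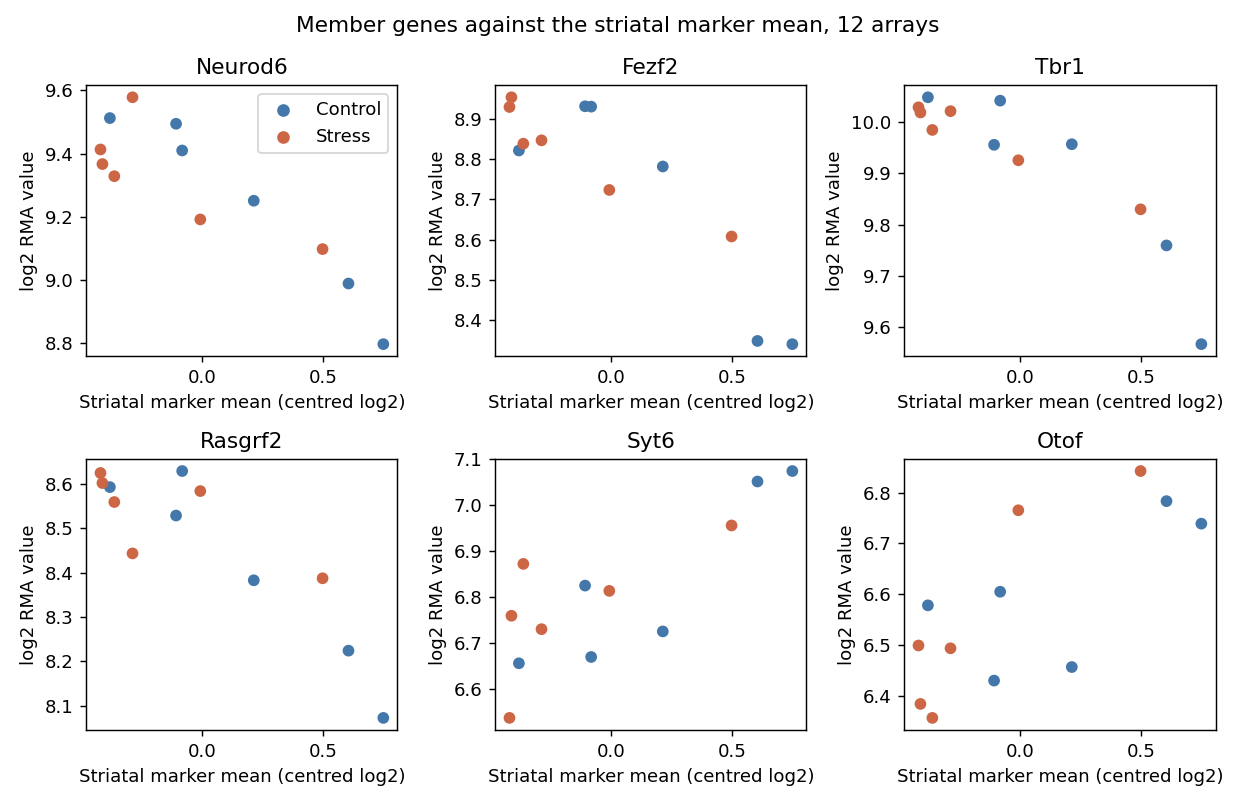
Log2 RMA value of 6 members (y axis, own scale for each gene) against the mean of the 23 striatal markers on the same array (x axis, centred log2), Control (blue) and Stress (orange), 1 point per array. Neurod6, Fezf2, Tbr1 and Rasgrf2 fall along the axis with slopes of −0.54, −0.48, −0.32 and −0.36, and Syt6 and Otof rise with slopes of 0.34 and 0.33.

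The promoters of Neurod6 and Neurod2 are shown because these relatives had slopes with the smallest and the third smallest p among members. Both are 250 bases before the gene start on the minus strand of GRCr8, from RefSeq, at chr4:86180156-86180405 for Neurod6 and chr10:83824278-83824527 for Neurod2. Capitals mark the E-box CAGATG on either strand, a sequence that NEUROD-type factors bind, and the cAMP response element TGACGTCA, the site of CREB.
Neurod6: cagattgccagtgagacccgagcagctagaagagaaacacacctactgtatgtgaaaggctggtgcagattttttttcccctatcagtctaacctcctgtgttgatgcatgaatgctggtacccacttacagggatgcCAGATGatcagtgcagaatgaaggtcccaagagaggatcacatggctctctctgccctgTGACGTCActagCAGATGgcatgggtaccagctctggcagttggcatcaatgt
Neurod2: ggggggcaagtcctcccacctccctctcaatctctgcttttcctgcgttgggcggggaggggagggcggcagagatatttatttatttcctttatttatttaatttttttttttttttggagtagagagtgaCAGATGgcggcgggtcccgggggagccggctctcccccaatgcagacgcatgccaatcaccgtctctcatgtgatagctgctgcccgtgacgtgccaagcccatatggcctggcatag
Neurod6 held the E-box 112 and 41 bases before its start and the cAMP response element 53 bases before it, and Neurod2 held 1 E-box 118 bases before its start. The E-box was present in 14% of 33469 promoter windows of this length and in 3 of 22 members (Neurod2, Neurod6 and Nrgn). TGACGTCA was present in 1.59% of the windows and in 1 member. The E-box CAGCTG, also searched, was present in 12% of the windows and in 2 members. The octamer ATGCAAAT (1.56% of the windows) and the T-box site TCACACCT (0.959%) were found in 0 members.

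Further genes of cortical excitatory neurons were taken from a longer list. Of 42 such genes 38 were measured, 22 with a higher and 16 with a lower mean in Stress, and 0 passed the threshold by limma. At an unadjusted p under 0.05, 4 of the 38 were past it, against 6.35% of all probe sets. They included the deep-layer genes Bcl6, a zinc finger repressor, at 0.23 (SE 0.0682, limma adjusted p = 0.463) and Zfpm2, a GATA cofactor, at 0.22 (adjusted p = 0.739). The others were Trib2, a deep-layer pseudokinase, at −0.093 (adjusted p = 0.769) and the activin subunit Inhba at −0.19 (adjusted p = 0.751). Slopes on the striatal mean passed in 15 of the 38 genes, 10 below and 5 above 0. Of all probe sets 4.09% passed, 1.87% below and 2.22% above 0. Slc17a7 was at −0.22 (SE 0.0540, adjusted p = 0.0398), Emx1 at −0.37 (adjusted p = 0.0106) and Mef2c, an activity-dependent factor, at −0.29 (adjusted p = 0.00114). The 5 above 0 were Slc17a6, a vesicular glutamate transporter found mostly in subcortical neurons (0.68, adjusted p = 0.0105), the calmodulin-binding protein Pcp4 (0.24, adjusted p = 0.00796), Bcl11b (0.48, adjusted p = 0.00171) and Foxp2 (0.51, adjusted p = 0.00223), factors of deep-layer neurons that striatal projection neurons also make, and Oprk1, the kappa opioid receptor, at 1.25 (adjusted p = 0.00152).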

How the data were processed

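The authors deposited log2 values per probe set, which they computed by RMA (oligo, version 1.58.0) for Affymetrix Rat Gene ST arrays hybridised from 250 ng of total RNA each. Quantile normalization within RMA removes shifts common to most genes. There is no read depth, and precision is limited by having 12 arrays. The table held 29214 probe sets, and 16085 with exactly 1 gene symbol in the platform annotation and a mean above 4 were tested. The annotation named 18644 probe sets with 1 symbol, 962 with several and did not list 9608. No genome build for the arrays is named in the sources used here.

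Groups and replicate numbers came from the sample labels, and each array was taken as a separate rat, so p-values measure the spread between these samples. For group differences, limma (version 3.58.1, R 4.3.3) was run on these values with group as the only term (lmFit, then eBayes). Its two-sided p-values were adjusted over all probe sets by the Benjamini-Hochberg method, which the study also used, and called at 0.05 or below. The fit was tested on simulated data. The members, their division into layers and all gene lists were chosen with earlier results of these data known. Of the members, values of every array or the lowest, median and highest were given for the 4 upper-layer, 4 deep-layer and 2 other genes with the smallest p and the 3 upper-layer and 3 deep-layer genes with the largest SD, and for a few more chosen after their values were seen. Of the further excitatory genes the 4 with the smallest p were named, and others were chosen after their values were seen. Array sets came from the sign of the first principal component over the dimmest 0.1 of probe sets, ranked by mean level. Promoter sequences came from a RefSeq table of the GRCr8 assembly, and the 50 bases after each start were not used. Alternatives covered the filter on low values, the variance trend, single arrays, the replicate number, the array set and tissue markers.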

Additional observations from a re-analysis of the deposited data

Results flagged for a closer look

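Among 66 sets of 6 values (each member and class mean in each group), 3 had an array whose gap to the nearest other, divided by the range of the group, was above Dixon's 95% critical value, which chance alone exceeds in about 1 in 20 sets. Pou3f2 stood at 7.22 in Stress 1, against 7.14 in the next Stress array. Cdh13 stood at 9.69 in Control 3, against 9.40 in the next control. The upper minus deep value was −0.12 in Control 3, against 0.012 in the next control.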

How the results depend on the processing

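No member passed the threshold in any alternative fit by limma, and 10 of 29 members kept the direction of their group difference in all of them, while 19 reversed in at least 1. The count of all probe sets past the threshold was 7. It was 7 without a filter on low values and with a mean above 5, 6 with a variance trend, 1 with the array set as a term, 1 within array set 2 alone, 11 with the striatal mean as a covariate, and 4 to 8 with single arrays left out (4 without Control 4, Control 6, Stress 1, Stress 2 or Stress 3). After the group mean of each probe set was taken off, same-numbered Control and Stress arrays correlated at −0.142 to 0.422. For replicates 1, 4 and 6 this was above the correlation with every other-numbered Stress array, and for replicates 2, 3 and 5 it was not. The check does not settle whether the numbers pair the arrays, and the main fit took them as unpaired. With the replicate number as a block the count was 6, and no member changed direction or side of the threshold in the group difference.

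With the array set as a term, and equally within array set 2 alone, 7 differences turned, to −0.0095 for Lamp5, 0.045 for Pou3f1, 0.074 for Pou3f2, −0.035 for Mdga1, 0.10 for Ntsr1, 0.011 for Nrgn and 0.021 for Cdh13. With the striatal covariate 14 turned, to 0.028 for Cux1, −0.035 for Cux2, −0.054 for Lamp5, 0.069 for Otof, −0.034 for Fezf2, −0.027 for Tbr1, −0.050 for Etv1, 0.0042 for Nxph4, −0.013 for Foxo6, 0.057 for Syt6, 0.058 for Ntsr1, −0.0014 for Neurod1, −0.056 for Neurod2 and −0.090 for Neurod6. With single arrays left out 9 turned at least once, with ranges of −0.077 to 0.012 for Cdh13, −0.0017 to 0.065 for Etv1, −0.026 to 0.066 for Lamp5, −0.046 to 0.044 for Mdga1, −0.0019 to 0.14 for Neurod6, −0.047 to 0.013 for Nrgn, −0.085 to 0.044 for Ntsr1, −0.020 to 0.016 for Pou3f1 and −0.049 to 0.020 for Pou3f2. The cause was not tested. The 4 class shifts moved by less than 1 SD in every alternative run, but with the striatal covariate the shift of the other members turned from 0.061 to −0.049 and that of the upper-layer members from 0.026 to −0.00084. A mean over several probe sets gave no value, since each member has 1.

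Fits of the striatal slope were added after seeing the data. Members past the threshold numbered 10 below and 2 above 0, 10 and 2 with the array set as a term, 9 and 2 without the group term, 9 and 1 with a striatal mean over 4 markers, 1 and 0 with the replicate block, 0 and 0 with the oligodendrocyte mean as a further term, and 6 to 10 and 0 to 2 with single arrays left out. The count above 0 was 1 without Control 2, Control 3, Control 6, Stress 1, Stress 3, Stress 5 or Stress 6. Over all probe sets the count was 658, and 687, 782, 474, 61 and 145 in these alternatives in the same order, with 274 to 759 for single arrays left out. No slope of the 12 was past the threshold in every fit.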
